A study of Mus musculus with 14 samples.

Results

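The 10 genes described here are used to recognise blood stem cells and were followed across sorted mouse cell populations. They are the transcription factor genes Hlf, Mecom, Meis1, Hoxa9 and Erg, the chromatin reader gene Mllt3, and the surface protein genes Cd34, Procr, Slamf1 and Cd48. The genes were taken by name, matched through their Ensembl identifiers, and are 10 of the 49583 genes with a value. The RNA came from 14 samples in 7 groups of 2, all from wild type C57BL/6 mice and all sorted to a stated purity above 98%. Ter cells are sorted as Ter-119+ (an erythroid antigen) CD45- Lin- cells, and came from the spleen of tumour-bearing mice (spleen Ter) and from embryonic liver at E14.5 (liver Ter). Bone marrow gave cells labelled megakaryocyte-erythroid progenitor (MEP), common myeloid progenitor (CMP), common lymphoid progenitor (CLP) and hematopoietic stem cell (HSC). The control was CD45+ Ter-119- cells, also of tumour-bearing spleen. The labels give no tumour type, and no age for the adult mice, and do not say whether both samples of a group are from different mice, so p-values measure the spread between samples, which may be technical.

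Blood stem cells keep a set of transcription factors switched on that is lost as cells commit to a lineage. Hlf and Mecom are among the most stem cell restricted of these, while Meis1, Hoxa9 and Erg stay on in many progenitors. Hoxa9 and Meis1 proteins bind DNA as partners, and both genes are often highly expressed in leukaemia. At the surface, mouse long-term stem cells are sorted as CD150+ CD48- cells within the c-Kit+ Sca-1+ Lin- fraction, CD150 being the product of Slamf1. Cd34 and Cd48 mark more proliferative progenitors of that fraction, and Procr is enriched on stem cells and on endothelium.

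The deposited table holds 1 value per gene and group in FPKM (fragments per kilobase of transcript, scaled by depth), the authors' mean of 2 samples. In the spleen Ter, liver Ter, MEP and CMP columns each mean could be split into 2 libraries with whole fragment counts, called A (the deeper) and B, with depths of 13413530.5 to 28537889 fragments. All 10 genes were recovered in all 8 libraries. The CLP, control and HSC columns were made in another way, have no recovered libraries, and are given as means without error. The 2 spleen Ter libraries stood apart from each other: 22.1% of genes were over 2-fold apart, where the liver Ter pair had 0.6%, the MEP pair 1% and the CMP pair 1.9%.

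Several columns went against their labels, and they are called by those labels here. The gate written for MEP includes CD34 and the one for CMP excludes it, whereas Cd34 averaged 0.0694 FPKM in the MEP column and 29.7 FPKM in the CMP column. The 6 neutrophil genes of a marker list summed to 168321 FPKM in the MEP column, all 6 at 1 FPKM or more, and 6 erythroid genes summed to 9.30 FPKM there, with Klf1 at 1.26 and Epor at 0.685 FPKM. The CMP column held 6723 FPKM over 5 genes of myeloid progenitors and 1454 FPKM over 5 mast cell and basophil genes, and the HSC column 718 and 1440 FPKM. The gate given for HSC, c-Kit+ Sca-1+ Lin-, also takes in multipotent progenitors, and that column carried 584 FPKM over 6 lymphoid progenitor genes, Dntt (the template-free polymerase of antigen receptor joining) alone at 416 FPKM. Spleen Ter, gated as CD45- Lin-, carried 1167 FPKM over 6 B cell genes, 349 over 6 T cell genes and 583 over 6 macrophage genes. Liver Ter carried 1.55, 2.72 and 10.9 FPKM of these. The 6 neutrophil genes summed to far more in spleen Ter, 24155 FPKM. They summed to 14696 FPKM in CLP, 11071 in HSC, 2860 in CMP, 788 in the control and 271 in liver Ter. The HSC column also carried 396 FPKM of the B cell genes. Control spleen cells carried 1958 FPKM of the B cell genes. In sorted populations, fewer cells of a type and less RNA per cell cannot be told apart.

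**Figure D1:**
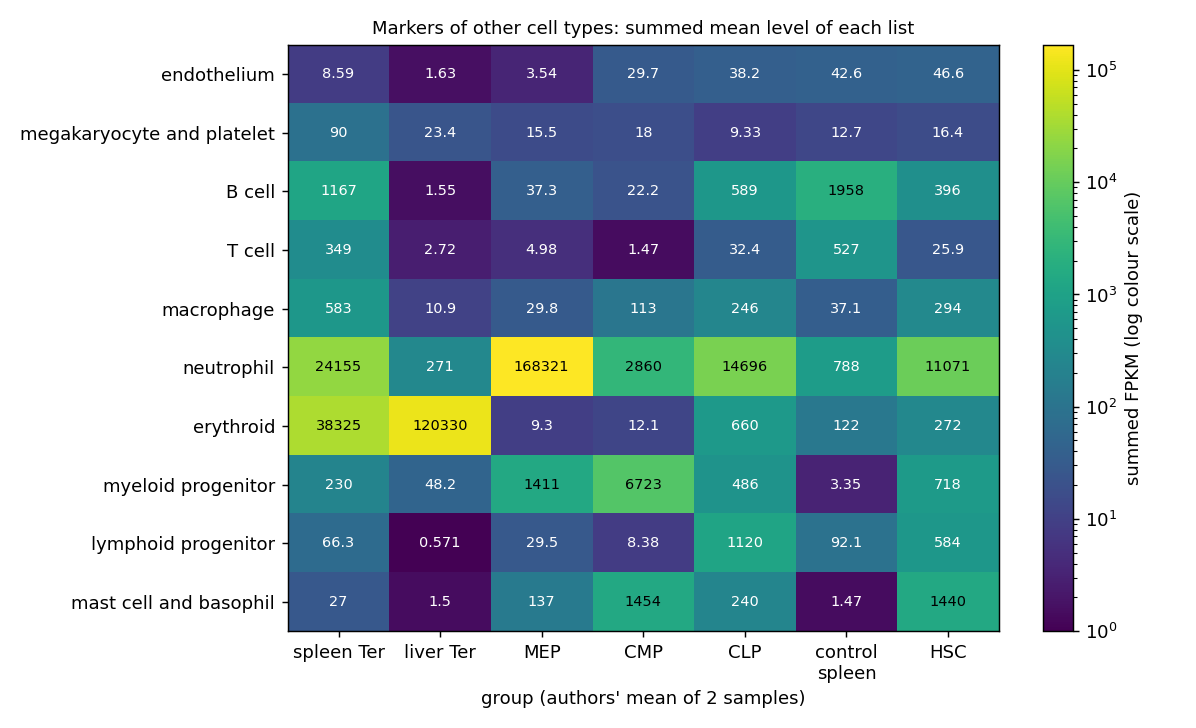
Summed deposited mean FPKM of 10 marker lists of other cell types (rows) in the 7 groups (columns), on a logarithmic colour scale. Neutrophil genes are highest in the MEP column (168321 FPKM), erythroid genes in liver Ter (120330 FPKM) and B cell genes in the control spleen cells (1958 FPKM).

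The promoters of 6 of the genes are shown, since these 6 carry the main contrasts: Cd34, Hoxa9 and Meis1 were far lower in MEP than in CMP, Erg was not, and Slamf1 and Cd48 are neighbouring genes of 1 family with different levels. Each line gives the 250 bases before the RefSeq start site in GRCm38.p6, on the gene's own strand, read 5′ to 3′. Capitals mark, on either strand, 4 motifs. ETS factors such as Erg read AGGAAG. For GATA factors the letters searched were AGATAA. Meis1 and its relatives read TGACAG. The last, CCAAT, is a general promoter element.
Cd34 (chr1:194938571-194938820, plus strand): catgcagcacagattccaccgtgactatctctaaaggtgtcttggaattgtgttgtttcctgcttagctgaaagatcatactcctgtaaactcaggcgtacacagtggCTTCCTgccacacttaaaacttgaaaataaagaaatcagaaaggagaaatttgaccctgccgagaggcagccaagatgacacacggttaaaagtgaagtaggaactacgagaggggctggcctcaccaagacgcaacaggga
Hoxa9 (chr6:52227371-52227620, minus strand): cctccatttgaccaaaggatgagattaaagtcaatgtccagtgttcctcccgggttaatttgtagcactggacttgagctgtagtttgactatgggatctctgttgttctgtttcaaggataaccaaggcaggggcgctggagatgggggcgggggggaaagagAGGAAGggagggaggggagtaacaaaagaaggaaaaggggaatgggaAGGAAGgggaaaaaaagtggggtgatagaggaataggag
Meis1 (chr11:19018970-19019219, minus strand): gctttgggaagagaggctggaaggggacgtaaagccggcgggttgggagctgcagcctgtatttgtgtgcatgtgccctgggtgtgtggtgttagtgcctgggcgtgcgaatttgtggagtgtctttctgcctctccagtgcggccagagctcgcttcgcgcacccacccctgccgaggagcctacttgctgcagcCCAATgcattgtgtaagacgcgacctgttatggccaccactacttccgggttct
Erg, start site 3 (chr16:95459349-95459598, minus strand): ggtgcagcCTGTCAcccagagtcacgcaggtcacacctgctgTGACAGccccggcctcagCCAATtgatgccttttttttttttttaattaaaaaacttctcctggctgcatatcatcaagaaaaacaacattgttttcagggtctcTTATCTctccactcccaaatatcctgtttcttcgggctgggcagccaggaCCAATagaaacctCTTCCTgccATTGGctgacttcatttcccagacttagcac
Slamf1 (chr1:171766882-171767131, plus strand): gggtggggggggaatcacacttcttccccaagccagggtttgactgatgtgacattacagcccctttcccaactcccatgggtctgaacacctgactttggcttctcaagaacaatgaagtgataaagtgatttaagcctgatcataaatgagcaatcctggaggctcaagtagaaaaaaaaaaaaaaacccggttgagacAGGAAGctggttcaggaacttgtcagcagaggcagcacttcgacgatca
Cd48 (chr1:171681742-171681991, plus strand): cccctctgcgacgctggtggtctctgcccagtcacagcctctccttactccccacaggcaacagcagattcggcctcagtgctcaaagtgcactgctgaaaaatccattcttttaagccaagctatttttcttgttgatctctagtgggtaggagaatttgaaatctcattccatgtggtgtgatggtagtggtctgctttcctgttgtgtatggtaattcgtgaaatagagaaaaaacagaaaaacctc
Over all 10 genes, 14 RefSeq start sites were matched. AGGAAG was found before 4 of them, AGATAA before 1, TGACAG before 3 and CCAAT before 6, set beside 29.5%, 9.99%, 15.9% and 33.8% of 32851 promoters of the same length. In Hoxa9 AGGAAG lies 86 and 39 bases before the start, in Cd34 142 bases before it on the other strand, and in Slamf1 49 bases before it. Erg has 3 matched start sites, and only site 3 is shown, which holds all 4 motifs. Site 1 of Erg holds 1 CCAAT and no other motif, and site 2 holds none. The Cd48 window also holds none of these letters. A match of letters is a description of the sequence and shows no binding.

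Hlf, Mecom, Procr, Meis1, Hoxa9 and Cd34 had their highest level in the HSC column. How many of all genes are highest there was not counted. HSC is a column of the other kind, with 12980 genes at 1 FPKM or more, against 7240 to 11500 in the recovered columns, so this order is a description. The other 4 peaked elsewhere: Slamf1 in the control spleen cells, Cd48 in CMP, Mllt3 in liver Ter and Erg in CLP. Levels ran over a wide range, and only Cd48 was above 50 FPKM in more than 1 column, at 82.4 FPKM in spleen Ter, 97.9 in CMP, 63.6 in CLP, 67.9 in the control and 66.4 in HSC.

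**Figure D2:**
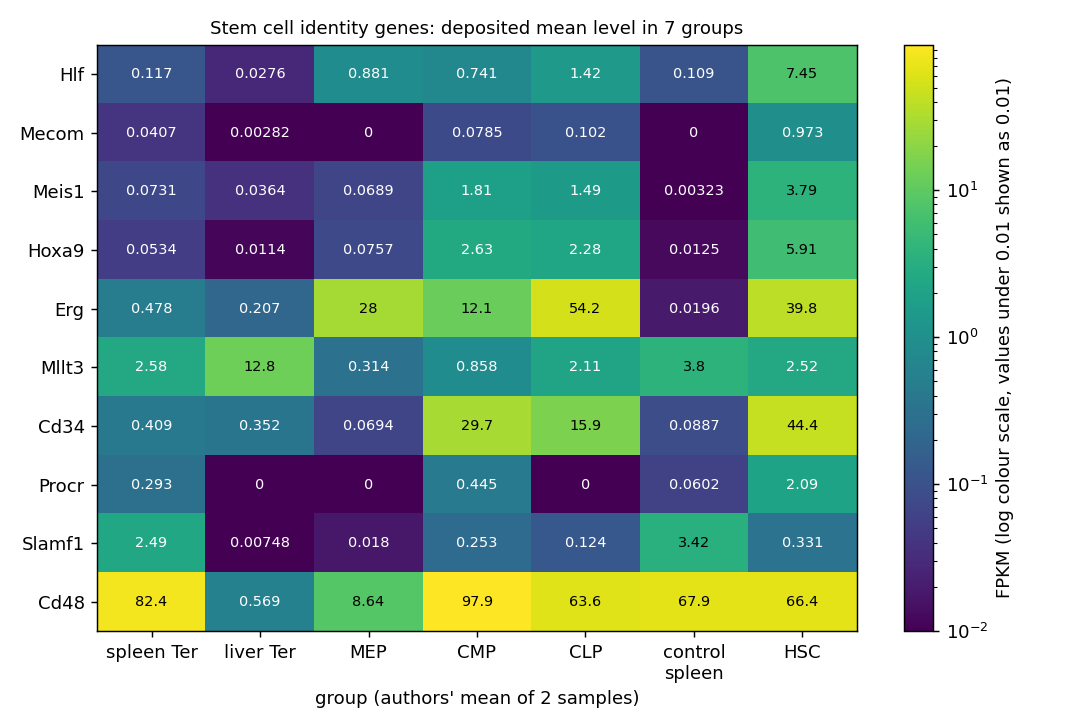
Deposited mean FPKM of the 10 genes (rows) in the 7 groups (columns), on a logarithmic colour scale. The HSC column is highest for Hlf (7.45), Mecom (0.973), Procr (2.09), Meis1 (3.79), Hoxa9 (5.91) and Cd34 (44.4), while Cd48 is high in 5 columns and Mllt3 peaks in liver Ter (12.8). The CLP, control and HSC columns were made in another way than the rest.

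Hlf (ENSMUSG00000003949, chr11:90336536-90390895, minus strand) encodes a basic leucine zipper factor of the PAR family. Its level was 0.0495 and 0.185 FPKM in the spleen Ter libraries, 0.0210 and 0.0341 in those of liver Ter, 0.875 and 0.887 in those labelled MEP, and 0.747 and 0.736 in those labelled CMP. The deposited means were 1.42 FPKM in CLP, 0.109 in the control and 7.45 in HSC. The Ter libraries were thus all below those of MEP and CMP, and HSC was above every other column, CLP being the nearest at 5.23-fold lower. MEP and CMP lie next to each other in this order and no difference was called, with a log2 fold change of MEP over CMP of 0.24 ± 0.41 (SE, limma voom on the recovered fragments, adjusted p = 0.700). Behind these values were 5 and 18 fragments for spleen Ter, 4 and 4 for liver Ter, 144 and 119 for MEP, and 73 and 66 for CMP.

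Mecom (ENSMUSG00000027684, chr3:29951296-30548008, minus strand) encodes a zinc finger factor, also known as EVI1, that stem cells need for their maintenance. In HSC it was the lowest of the 10 genes but Slamf1, at 0.973 FPKM, and its level elsewhere rested on few fragments. The spleen Ter libraries held 8 and 7 fragments, those of liver Ter 2 and 0, those labelled MEP 0 and 0, and those labelled CMP 10 and 17. That is 0.0426 and 0.0387 FPKM for spleen Ter and 0.0550 and 0.102 FPKM for CMP. These ranges do not overlap, but no difference was called (log2 fold change -0.84 ± 0.65, limma voom adjusted p = 0.319). For MEP, 3 fragments would be 0.00980 FPKM in the deeper library and 0.0120 FPKM in B, so Mecom was at least 7.19-fold lower there than in CMP. CLP had 0.102 FPKM, and the control is listed at 0. Mecom is overlapped over 0.652% of its exon bases by the antisense gene Mecomos, and whether the counting used strand is not given in the sources used here.

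Meis1 (ENSMUSG00000020160, chr11:18879817-19018985, minus strand), a homeodomain partner of HOX proteins, and Hoxa9 (ENSMUSG00000038227, chr6:52223100-52231089, minus strand), a posterior HOX factor, had nearly the same profile over the 7 columns. The Pearson correlation of their log2(FPKM + 1) means was 0.999, a description over 7 means made in 2 ways. Meis1 was at 0.101 and 0.0457 FPKM in the spleen Ter libraries, 0.0133 and 0.0596 in those of liver Ter, 0.0810 and 0.0567 in those labelled MEP, and 1.97 and 1.66 in those labelled CMP. For Hoxa9 the spleen Ter libraries had 0.107 and 0 FPKM, liver Ter had 0.0126 and 0.0102, MEP had 0.0801 and 0.0714, and CMP had 2.88 and 2.38. Both CMP libraries lay far above the other 6 for both genes, and the spleen Ter and MEP libraries overlapped. In CLP and HSC the deposited means of Meis1 were 1.49 and 3.79 FPKM and those of Hoxa9 2.28 and 5.91, while the control had 0.00323 and 0.0125 FPKM. Between MEP and CMP, both genes were called lower in MEP: the log2 fold change on log2(FPKM + 1) was -1.39 ± 0.12 for Meis1 (adjusted p = 0.000315) and -1.75 ± 0.13 for Hoxa9 (adjusted p = 0.000223). These are from limma with 8 libraries, and the ratios of the means were larger, with Meis1 26.3-fold and Hoxa9 34.7-fold lower in MEP. After scaling the libraries by median of ratios the Meis1 difference was -0.92, below 2-fold. Gm16140 on the opposite strand and Gm37818 on the same strand share 8.51% and 9.77% of the exon bases of Meis1, so the fragments of these genes cannot be told apart there.

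Cd34 (ENSMUSG00000016494, chr1:194938819-194961279, plus strand) encodes a sialomucin of progenitors and endothelium, and its profile followed Hoxa9 and Meis1 with correlations of 0.983 and 0.981 over the 7 means. Its spleen Ter libraries had 0.318 and 0.500 FPKM, liver Ter had 0.361 and 0.344, MEP had 0.111 and 0.0273, and CMP had 29.3 and 30.1. CLP had 15.9 FPKM, the control 0.0887 and HSC 44.4. Both CMP libraries were thus near the HSC level and the other 6 libraries were below 1 FPKM. Cd34 was 428-fold lower in MEP than in CMP, from 20 and 4 fragments in MEP and 3126 and 2943 in CMP (log2 fold change -4.84 ± 0.16, limma adjusted p = 0.000153). It was also called lower than in CMP in spleen Ter (-4.45, adjusted p = 1.49e-05) and liver Ter (-4.50, adjusted p = 6.85e-06). Spleen Ter and liver Ter overlapped, with a difference of 0.06 ± 0.16 (adjusted p = 0.779) whose sign turned under 3 other scalings and without spleen Ter library B. Spleen Ter over MEP gave 0.40 (adjusted p = 0.0741), which was called with voom (2.73, adjusted p = 0.00975).

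Procr (ENSMUSG00000027611, chr2:155751117-155755471, plus strand) encodes the endothelial protein C receptor, EPCR. Its 18 fragments in spleen Ter all lay in library A (0.587 FPKM), with 0 in library B, where 3 fragments would be 0.102 FPKM. Liver Ter and MEP had 0 fragments in both libraries, while CMP had 9 and 16 (0.303 and 0.587 FPKM). Procr was therefore at least 6.66-fold lower in MEP than in CMP, and at least 6.55-fold lower in liver Ter. HSC had 2.09 FPKM and the control 0.0602, and CLP is listed at 0. The spleen Ter mean of 0.293 FPKM thus came from 1 library.

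Erg (ENSMUSG00000040732, chr16:95359169-95586593, minus strand), an ETS family factor of blood and endothelium, departed from Meis1 and Hoxa9 between MEP and CMP. Hlf was also higher in the MEP libraries, at 0.875 and 0.887 against 0.747 and 0.736 FPKM, with no difference called. For Erg, MEP libraries had 30.5 and 25.6 FPKM and CMP libraries 11.5 and 12.7, so that the order of these 2 groups was the opposite of that for Meis1, Hoxa9 and Cd34. The difference of MEP over CMP was 1.14 ± 0.31 (limma adjusted p = 0.0223, ratio 2.32). This call was lost when any 1 of the 4 libraries was left out (adjusted p 0.0760 to 0.128), with a pseudocount of 0.1 (0.321), without a filter on low values (0.0522) and with voom (0.0782), though the direction held in each of these. In spleen Ter library A Erg was at 0.936 FPKM, from 49 fragments, and library B had 0.0198 FPKM, from 1 fragment. Liver Ter had 0.152 and 0.263 FPKM, inside that range. Erg was called lower in spleen Ter than in MEP (-4.36, adjusted p = 8.16e-05) and CMP (-3.22, adjusted p = 0.000237). CLP was highest at 54.2 FPKM, then HSC at 39.8, and the control had 0.0196.

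Erg, Cd34, Procr and Mecom are also known in endothelium, and 9 endothelial genes summed to 8.59 FPKM for spleen Ter, 1.63 for liver Ter, 3.54 for MEP, 29.7 for CMP, 38.2 for CLP, 42.6 for the control and 46.6 for HSC. Pecam1, which leukocytes express too, made up 42.0 of the 42.6 FPKM in the control. Cdh5, which defines endothelium, was at 0.0468 to 0.535 FPKM outside HSC and at 1.08 FPKM in HSC. The part of endothelial RNA in these levels was not tested.

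Mllt3 (ENSMUSG00000028496, chr4:87769925-88033364, minus strand) encodes AF9, a YEATS domain protein of the elongation machinery that in human stem cells is needed for self-renewal. It peaked in liver Ter, with 12.4 and 13.3 FPKM in the 2 libraries. Spleen Ter had 3.56 and 1.59 FPKM, MEP 0.230 and 0.398, and CMP 0.802 and 0.913. No 2 of these 4 ranges overlap, and the order was liver Ter, spleen Ter, CMP and MEP. The deposited means in CLP (2.11 FPKM), the control (3.80) and HSC (2.52) lay near that of spleen Ter (2.58). By limma Mllt3 was higher in liver Ter than in MEP (log2 fold change 3.40 ± 0.28, adjusted p = 8.56e-05) and CMP (2.90, adjusted p = 0.000137), and spleen Ter was below liver Ter (-2.01, adjusted p = 0.000750). It was also higher in spleen Ter than in MEP (1.39, adjusted p = 0.00514), a difference of 0.98 without spleen Ter library A. Spleen Ter over CMP was below 2-fold at 0.89 (adjusted p = 0.0310), and was called at 1.04 to 1.48 without spleen Ter library B, with a pseudocount of 0.1, with 2 other scalings and with voom. In these 4 groups the 6 erythroid genes moved with this order, summing to 38325 FPKM for spleen Ter, 120330 for liver Ter, 9.30 for MEP and 12.1 for CMP. They summed to only 660 FPKM in CLP, 272 in HSC and 122 in the control, where Mllt3 was near its spleen Ter level. The part of erythroid cells was not tested. Within spleen Ter, library A had 2.24 times the Mllt3 of library B, and 571 against 40.0 FPKM over the 4 erythroid genes that could be recovered.

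Slamf1 (ENSMUSG00000015316, chr1:171767127-171801184, plus strand) encodes CD150, a self-binding receptor of lymphocytes and stem cells. Spleen Ter libraries had 1.69 and 3.29 FPKM, liver Ter 0.00569 and 0.00926, MEP 0.0198 and 0.0162, and CMP 0.300 and 0.206. The deposited means were 0.124 FPKM in CLP, 3.42 in the control and 0.331 in HSC. The spleen populations were thus both above HSC, spleen Ter 7.53-fold and the control 10.3-fold by their means. Slamf1 was called higher in spleen Ter than in liver Ter (1.75 ± 0.22, adjusted p = 0.000450), MEP (1.74, adjusted p = 0.000672) and CMP (1.44, adjusted p = 0.00155) by limma. Its difference between MEP and CMP was -0.30 ± 0.22 (adjusted p = 0.308) on log2(FPKM + 1), from 3 and 2 fragments in MEP and 27 and 17 in CMP, and with voom it was called (-3.56, adjusted p = 0.0108).

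Cd48 (ENSMUSG00000015355, chr1:171682009-171705258, plus strand) encodes a lipid-anchored relative that binds CD244, and lies 61868 bases from Slamf1 with 0 coding genes between them. Its spleen Ter libraries measured 69.4 and 95.4 FPKM, those of liver Ter 0.707 and 0.432, those labelled MEP 8.81 and 8.46, and those labelled CMP 96.5 and 99.3. Cd48 was called higher in spleen Ter than in liver Ter (5.72 ± 0.19, limma adjusted p = 3.77e-06, ratio 145) and MEP (3.10, adjusted p = 5.15e-05, ratio 9.54). Against CMP it was not called (-0.26, adjusted p = 0.277), though the ranges do not overlap, and the sign turned to 0.33 with median-of-ratios scaling. MEP was lower than CMP (-3.36, adjusted p = 0.000167). On the FPKM scale, which is per length, the mean level of Cd48 was 33.1 times that of Slamf1 in spleen Ter, 387 times in CMP and 201 times in HSC.

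**Figure D3:**
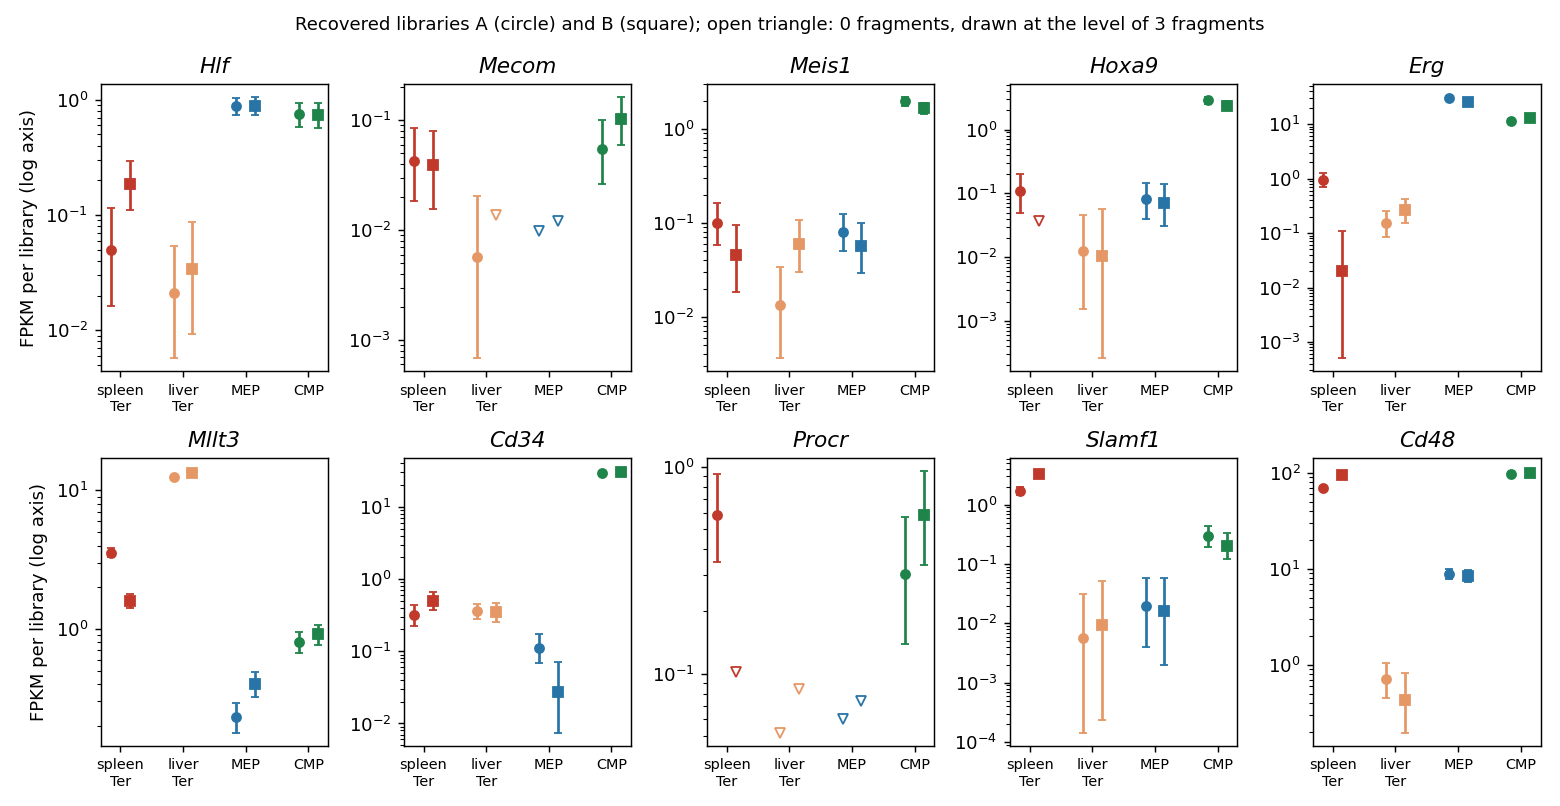
FPKM of the 10 genes in the 8 recovered libraries, 2 per group (circle for library A, square for B), on logarithmic axes with 95% Poisson intervals that cover counting error only. Open triangles are libraries with 0 fragments, drawn at the level of 3 fragments, and Procr and Erg show the gap between the spleen Ter libraries (Erg at 0.936 and 0.0198 FPKM).

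Of the 10 genes, 7 passed the filter of at least 1 FPKM in 2 libraries, and Hlf, Mecom and Procr did not. A gene that passed only through the group where it is high had to differ. Among the 8 libraries, Meis1, Hoxa9 and Cd34 reached 1 FPKM only in CMP, and Slamf1 only in spleen Ter. Their calls against that group, and the counts that hold these calls, are therefore descriptions. The counts that follow describe the 7 genes and are set beside the share of all 12947 genes tested. A gene was called at a limma adjusted p (Benjamini-Hochberg) under 0.05 and at least 2-fold. Between spleen Ter and liver Ter, Slamf1 and Cd48 were higher and Mllt3 lower, so 3 of 7 were called, with 54.5% of all genes called, 42.8% higher and 11.7% lower. Between spleen Ter and MEP 4 of 7 were called (Slamf1, Cd48 and Mllt3 higher, Erg lower, beside 42.6% of all genes, 23.1% higher and 19.5% lower), and between spleen Ter and CMP 5 of 7 (Slamf1 higher, Meis1, Hoxa9, Cd34 and Erg lower, beside 42.2%, 14% higher and 28.2% lower). Between MEP and CMP 5 of 7 were called (Erg higher, Meis1, Hoxa9, Cd34 and Cd48 lower, beside 31.6%, 7.35% higher and 24.3% lower). Liver Ter had 3 of 7 called against MEP, with Mllt3 higher and Cd48 and Erg lower, beside 42% of all genes, 8.71% higher and 33.3% lower. Against CMP, liver Ter had 6 of 7 called, with Mllt3 higher and Meis1, Hoxa9, Cd34, Cd48 and Erg lower, beside 59.9%, 6.97% higher and 52.9% lower. The members' median log2 fold change was -1.39 for MEP over CMP and for spleen Ter over CMP, beside -0.41 and -0.40 over all genes tested. In both cases this median is the value of Meis1, which passed the filter only through CMP, so the gap follows in part from the filter. For spleen Ter over liver Ter the members' median was 0.06, beside 0.79.

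The 3 genes below the filter were tested with limma voom on the recovered fragments of 19147 genes, a test chosen after the data were seen. Hlf was called lower in spleen Ter than in MEP (-3.12 ± 0.57, adjusted p = 0.00300) and CMP (-2.88, adjusted p = 0.00568), where 45.1% and 43% of all genes were called. It was also lower in liver Ter than in MEP (-4.90, adjusted p = 0.000419) and CMP (-4.65, adjusted p = 0.000483), with 46.6% and 59.8% of all genes called. Mecom was called higher in spleen Ter than in MEP (adjusted p = 0.00253) and in liver Ter (adjusted p = 0.00596, with 59.4% of all genes called), and lower than in CMP in MEP (adjusted p = 0.00175, with 29.8% called) and liver Ter (adjusted p = 0.00162). Procr was called lower than in CMP in MEP (adjusted p = 0.0270) and liver Ter (adjusted p = 0.0142), and in no comparison with spleen Ter, where its 2 libraries differed most.

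**Figure D4:**
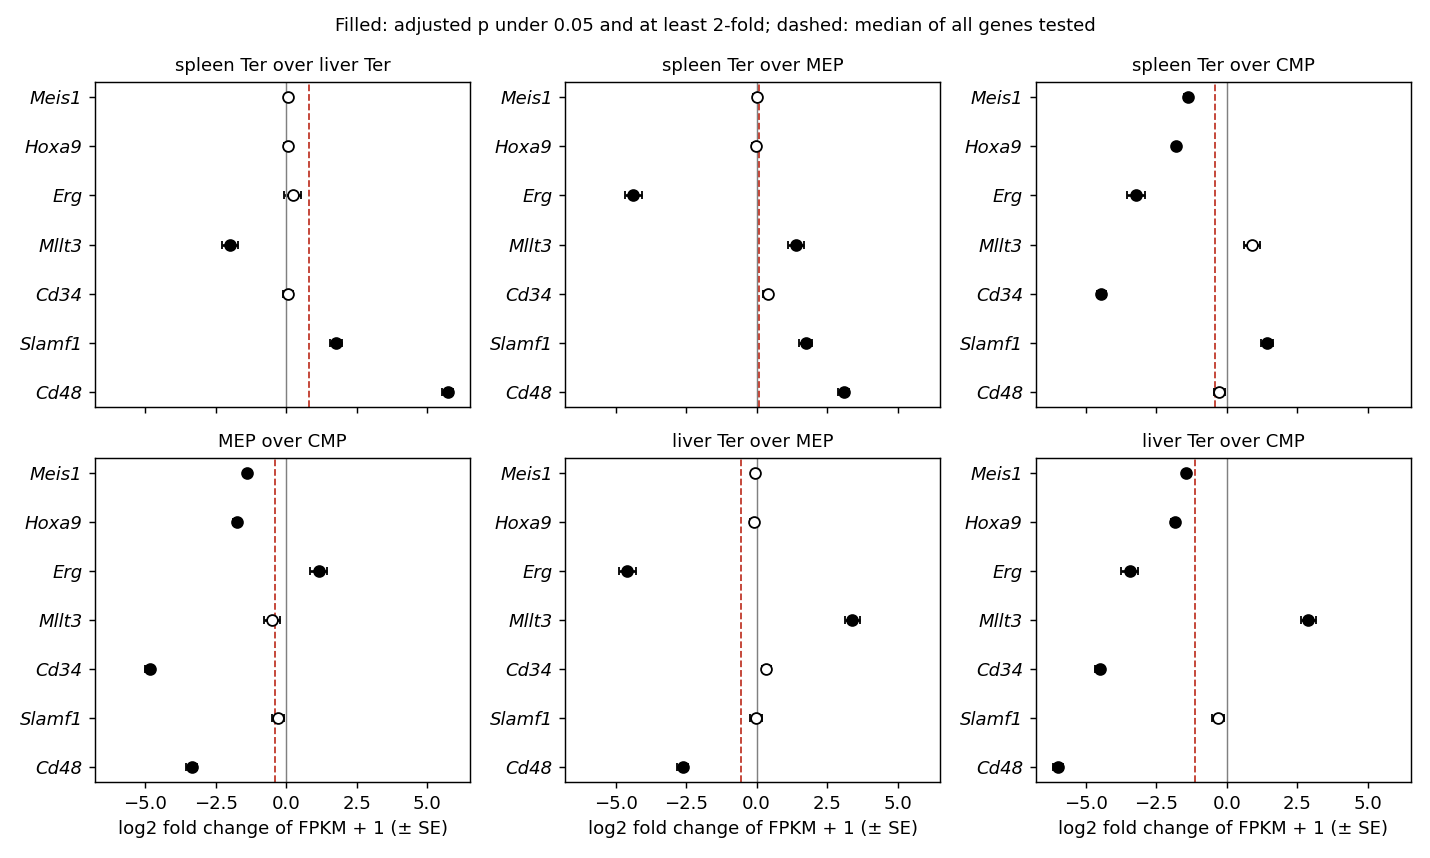
Log2 fold change on log2(FPKM + 1), with its SE, of the 7 genes tested by limma in 6 comparisons. Filled points passed the adjusted p and the 2-fold threshold and the dashed line is the median of all genes tested. Meis1, Hoxa9 and Cd34, which passed the filter only through CMP, lie left of 0 in the 3 comparisons with CMP (Cd34 at -4.84 for MEP over CMP).

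Comparisons of the HSC column with the recovered columns cross the 2 kinds of column and have no test. CLP and the control are of the same kind as HSC but have no libraries, so they were not tested either. A gene that reached 1 FPKM only in HSC had to be lower in the other column, so counts of such genes are descriptions. Every gene lower in spleen Ter or liver Ter was of this sort, and all but Cd48 in MEP. So were Hlf and Procr in CMP, and Procr in CLP. Slamf1 reached 1 FPKM in spleen Ter and not in HSC, and had to be higher there. Of the 9 genes with 1 FPKM in spleen Ter or HSC, 6 were at least 2-fold lower in spleen Ter (Hlf, Procr, Meis1, Hoxa9, Cd34 and Erg) and Slamf1 was higher, beside 34.1% lower and 14.2% higher of all genes. Cd34 was 108.5-fold lower. Hoxa9 was 110.7-fold lower by the mean of 0.0534 FPKM and 55.4-fold lower by library A alone, since library B had 0 fragments. Erg was 83.4-fold lower by the mean, 42.6-fold by library A and 2009-fold by library B, where it had 1 fragment. Procr was below 2-fold on log2(FPKM + 1) by library A alone (-0.96). Cd48 and Mllt3 were within 2-fold, at 82.4 against 66.4 FPKM and 2.58 against 2.52 FPKM. Liver Ter had 7 of 8 genes lower and Mllt3 higher (67% of all genes lower and 7.14% higher), and the MEP column 7 of 8 lower, all but Erg (40.1% of all genes lower and 9.58% higher). In CMP, 3 of 8 were lower, namely Hlf (0.741 against 7.45 FPKM), Procr (4.69-fold, and below 2-fold on log2(FPKM + 1) by library B alone) and Erg (3.29-fold), with 20.6% of all genes lower and 5.65% higher.

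CLP was the column closest to HSC by these shares, with 3.09% of all genes at least 2-fold lower and 2.45% higher. Only CLP and the control are of the same kind of column as HSC, and the part of this in the ranking was not tested. In CLP 4 of the 8 genes compared were lower: Hlf by 5.23-fold, Cd34 by 2.79-fold, Hoxa9 by 2.59-fold, and Procr, listed at 0. Meis1 was 2.54-fold lower by its means, 1.49 against 3.79 FPKM, which stays below 2-fold on log2(FPKM + 1). Erg, Cd48 and Mllt3 were within 1.5-fold. Hoxa9 fell below 2-fold with median-of-ratios scaling (-0.97), where the main value was -1.07.

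Against the spleen control, only 3 genes reached 1 FPKM in either column, and none of these differed 2-fold: Slamf1 at 2.49 FPKM (spleen Ter) and 3.42 FPKM (control), Cd48 at 82.4 and 67.9, and Mllt3 at 2.58 and 3.80. Of all genes, 13.5% were at least 2-fold higher and 28.4% lower. The control had 6 of 9 genes lower than HSC (Hlf, Procr, Meis1, Hoxa9, Cd34 and Erg) and Slamf1 higher, beside 16.2% of all genes lower and 10.5% higher. Those 6 reached 1 FPKM only in HSC, and Slamf1 only in the control, so their directions were set by the filter. For the 2 genes high in both spleen columns, B cell and T cell genes were high in both as well, summing to 1167 and 349 FPKM for spleen Ter and 1958 and 527 FPKM for the control, and their part in the Slamf1 and Cd48 levels was not tested.

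Within spleen Ter the 10 genes split between the 2 libraries. Library B was higher for Hlf, Slamf1, Cd34 and Cd48, whereas library A was higher for Procr, Hoxa9, Erg, Meis1 and Mllt3, and Mecom was nearly level. The marker lists split too: myeloid progenitor genes summed to 426 FPKM for library A and 33.9 for B, mast cell and basophil genes to 52.4 and 1.47, macrophage genes to 155 and 1012, and B cell genes to 1009 and 1326. Their part in the members' levels was not tested. Without library B the Erg difference of spleen Ter over liver Ter was 0.68, and without library A it was -0.24, beside 0.22 with both.

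The 7 lists of related genes, 74 genes with a value, give the surroundings of the 10. They went through the same filter, so calls of list genes that passed only through 1 group, and counts that hold them, are descriptions too. Of 14 blood stem transcription factors tested, 10 were called lower in MEP than in CMP and 0 higher (median -1.29 on the log2 scale), beside 24.3% of all genes lower and 7.35% higher. With median-of-ratios scaling 3 were lower and 2 higher, and 61.0% of all calls were higher, against 23.2% without that scaling. Mycn and Zfp521, both within the 10, reached 1 FPKM only in CMP among the 8 libraries. Between spleen Ter and MEP 5 of these 14 were lower and 0 higher (19.5% and 23.1% of all genes), Lyl1 (a basic helix-loop-helix factor) by -3.36 ± 0.23 (limma adjusted p = 6.92e-05) and Gfi1 (a zinc finger repressor) by -2.69 (adjusted p = 0.000426). The erythroid factors Tal1, Lmo2 and Gfi1b were higher in liver Ter than in MEP, against 7 of the 14 that were lower, beside 8.71% of all genes higher and 33.3% lower, and with median-of-ratios scaling 5 were higher and 6 lower. Tal1 had 141 FPKM in liver Ter and 2.06 in MEP, and 1.89 FPKM in spleen Ter.

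Of 10 progenitor surface genes tested, 7 were called lower in MEP than in CMP (24.3% of all genes), led by Flt3 (a cytokine receptor of early progenitors; -3.52 ± 0.21, limma adjusted p = 0.000185), Adgrg1 (-3.27) and Cd93 (-3.26), and Cd9, a tetraspanin, was higher (2.93). Spleen Ter had more Ly6a, which encodes the Sca-1 antigen of the HSC gate, than MEP (7.21 ± 0.27, limma adjusted p = 1.60e-05), at 150 and 245 FPKM in the spleen Ter libraries and a mean of 0.300 FPKM in MEP. Ly6a was also at 104 FPKM in the control and at 32.5 FPKM in HSC. Lymphocytes can carry this antigen too, and their part in these levels was not tested. Cd27, a receptor of lymphocytes and progenitors, was higher in spleen Ter than in MEP as well (3.24). Kit, the other gate gene of HSC, averaged 1.70 FPKM for spleen Ter, 0.505 for liver Ter, 7.91 for MEP, 22.9 for CMP and 22.3 for HSC.

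The SLAM relatives of Slamf1 and Cd48 were all 7 called higher in spleen Ter than in liver Ter (median 2.995 on the log2 scale, with 42.8% of all genes higher), and 6 of 7 than in MEP (median 1.52, with 23.1% of all genes higher). Lymphocyte and macrophage genes moved with them: B cell genes summed to 1167 FPKM for spleen Ter and 1.55 for liver Ter, T cell genes to 349 and 2.72, and macrophage genes to 583 and 10.9, and their part was not tested. Against MEP, Cd84 was not called (0.45), with 15.6 FPKM in spleen Ter and 10.9 in MEP. Between spleen Ter and the control 5 of 7 were within 2-fold. Most of all genes were within 2-fold too, with 13.5% higher and 28.4% lower. Between spleen Ter and HSC 6 of 7 were within 2-fold and 1 was lower (14.2% of all genes higher and 34.1% lower). Between CLP and HSC all 7 were within 2-fold (2.45% of all genes higher and 3.09% lower). These are ratios of means with no test. Of 5 HOX genes and cofactors tested, Hoxa5 and Hoxa7 were called lower in MEP than in CMP and 1 other gene was called higher. The median was -0.07, and 24.3% of all genes were lower and 7.35% higher. With median-of-ratios scaling 1 was lower and 1 higher. Hoxa5 reached 1 FPKM only in CMP, and Hoxa7 only there and in spleen Ter library B, so their calls against CMP are descriptions. Among quiescence genes Angpt1, a ligand of the Tek receptor, was lower in MEP than in CMP (-3.07 ± 0.20, limma adjusted p = 0.000186). It averaged 0.195 FPKM in spleen Ter and MEP and 0.142 in liver Ter, and passed the filter only through CMP, so this call is a description. In CMP, 6 of the 7 quiescence genes compared were at least 2-fold lower than in HSC, beside 20.6% of all genes. That comparison crosses the 2 kinds of column with no test, and with median-of-ratios scaling 3 of the 7 were lower. Of 6 partners of Mllt3 in elongation and MLL complexes, 4 were lower in liver Ter than in CMP, near the 52.9% of all genes that were lower, and 0 with median-of-ratios scaling. In CLP over HSC the list genes with large differences included Angpt1 (-2.11), Itga2b (-1.41) and Tal1 (-1.38), on log2(FPKM + 1) of the means with no test.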

How the data were processed

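Gene expression was measured by RNA sequencing of 14 sorted mouse samples in 7 groups of 2. The deposited values are FPKM, with 1 column for each group that the authors averaged over its 2 samples, a unit taken from the values themselves. The genome build is mm10, per the submitters' processing notes. The sources used here name neither aligner nor counter nor annotation. The table has 49588 lines, of which 2 lack a name and 3 repeat others exactly, leaving 49583 genes, 49324 of them matched by Ensembl identifier to GENCODE M21 (GRCm38). The tests were planned for values per sample, which the table does not hold.

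In 4 columns each mean is the average of 2 whole fragment counts divided by their library depths, so both were recovered from the mean and the exon length. Fitted depths came out within 0.0005 fragments of a multiple of 0.5. Counts could be had in all 8 libraries for 97.9% of 14049 genes that average 1 FPKM or more in at least 1 such column. On simulated data 2972 of 3000 genes were recovered, 2 of them with a wrong count. The 3000 were drawn from genes already recovered in the real data, so the simulation cannot show how often other genes fail. Of 300 that were given a wrong length, so that the length was searched, 93.3% were recovered, against 99.7% of the rest. In the other 3 columns the most frequent product of FPKM and length was shared by 10 to 20 genes, against 1188 to 2686 in the recovered columns, and processed pseudogenes took 6.10% to 8.02% of FPKM, against 0.437% to 1.52%, so comparisons across the 2 kinds of column were not tested. Depth there is unknown.

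The 6 comparisons among the recovered groups were fitted with limma 3.58.1 in R 4.3.3 (trend, 4 residual and 2.6 prior degrees of freedom) on log2(FPKM + 1) of 12947 genes with at least 1 FPKM in 2 libraries, which understates fold changes of low genes. All 4 groups share 1 estimate of the spread, so SEs can be too small for spleen Ter, whose libraries differed most, and too large for the others. Another 7 comparisons give ratios of deposited means with no test. Intervals are exact Poisson at 95% and, like the floor of 3 fragments, cover counting error only. Promoter sequences are from RefSeq (GRCm38.p6). Alternatives were another pseudocount, filter, scaling, variance model, fits of 2 groups, leaving out each library, voom on the fragments, and ratios of means by single libraries, the last 2 chosen after seeing the data. Besides the 10 genes, the text names list genes with the 4 largest changes in spleen Ter over MEP, MEP over CMP and CLP over HSC, those that run against their list, and for each of the 10 the 3 genes with the highest Pearson r over the 7 means. Some genes that this rule names are not reported here. Tal1, Lmo2, Kit, Ly6a in other groups and the marker genes were named after their values were seen. The 10 genes and all lists were chosen with earlier results of these data known.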

Additional observations from a re-analysis of the deposited data

How the results depend on the processing

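No paired analysis was possible because the recovered libraries carry no replicate number. Among values of the 10 genes, 1002 alternatives kept their direction and their side of the threshold, 15 lost a call, 14 gained one, 20 changed sign (in all 20 the gene was not called as reported) and 14 untested values crossed 2-fold; of the counts of genes, 129 were within 1.5 times and 15 were not. The cause was not tested in any of these. For spleen Ter over liver Ter, the sign turned with median-of-ratios scaling for Meis1 (-0.0064) and Cd34 (-0.36), with quantile normalization for Meis1 (-0.36), Hoxa9 (-0.29), Cd34 (-0.92) and Erg (-0.55), with totals without globin genes for Cd34 (-0.19), and with voom for Erg (-0.24). Elsewhere it turned with median-of-ratios scaling for Cd48 in spleen Ter over CMP (0.33) and Meis1 in liver Ter over MEP (0.010), and with quantile normalization for Slamf1 (0.26), Meis1 (0.37) and Hoxa9 (0.23) in liver Ter over MEP and Slamf1 in liver Ter over CMP (0.086). Leaving out 1 library gave, for spleen Ter over liver Ter, -0.016 to 0.13 for Hoxa9, -0.037 to 0.15 for Cd34 and -0.24 to 0.68 for Erg, and for spleen Ter over MEP -0.032 to 0.042 for Meis1 and -0.11 to 0.041 for Hoxa9. Meis1 fell below 2-fold in its comparisons with CMP under median-of-ratios scaling and quantile normalization (-0.93 to -0.56), and Hoxa9 in liver Ter over CMP under quantile normalization (-0.99). Over HSC, both scalings brought Procr below 2-fold in spleen Ter (-0.85 and -0.70) and CMP (-0.83 and -0.45), and Mllt3 in MEP (-0.92 and -0.51). With a pseudocount of 0.1 and with voom, Cd34 was called in both Ter groups over MEP and Slamf1 in MEP and liver Ter over CMP.

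With voom on the fragments 11381 genes were called between spleen Ter and liver Ter (7050 as reported), 8643 between spleen Ter and MEP (5515), 8227 between spleen Ter and CMP (5461) and 8920 between liver Ter and MEP (5438), of more genes tested. Quantile normalization gave 4561 for liver Ter over CMP (7755). For ratios of means, a filter of 5 FPKM, which tests fewer genes, gave 4592 for spleen Ter over HSC (6999), 6434 for liver Ter over HSC (9976), 4413 for MEP over HSC (6791), 2222 for CMP over HSC (3589), 369 for CLP over HSC (759), 2458 for the control over HSC (3747) and 3856 for spleen Ter over the control (5792). Quantile normalization gave 6171 for liver Ter over HSC, and CLP over HSC had 1489 with a pseudocount of 0.1 and 497 with median-of-ratios scaling. Scaling also moved the share of calls that were higher. With median-of-ratios scaling it was 53.1% (78.6% as reported) for spleen Ter over liver Ter, 57.1% (33.1%) over CMP, 61.0% (23.2%) for MEP over CMP, 48.0% (20.7%) and 50.7% (11.6%) for liver Ter over MEP and CMP, 53.7% (29.3%), 47.3% (9.63%), 49.7% (19.3%) and 55.8% (39.2%) for spleen Ter, liver Ter, MEP and the control over HSC, and 48.0% (32.2%) for spleen Ter over the control. With quantile normalization CMP over HSC had 46.3% (21.5%). The median of all genes for spleen Ter over liver Ter was 0.79, 0.12 with median-of-ratios scaling and -0.05 with quantile normalization. Counts of 0 to 20 fragments, as for Mecom, Procr and Hoxa9 in the Ter and MEP libraries, limit what these depths can show.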

Other observations

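The genes most like each of the 10 over the 7 deposited means were ranked by the Pearson correlation of log2(FPKM + 1), among 8808 protein-coding genes with at least 5 FPKM in some column. The 7 means come from 2 kinds of column, so these are descriptions. Angpt1, a secreted ligand of the Tek receptor, was the nearest gene to both Meis1 (r = 0.993) and Hoxa9 (r = 0.994), at 8.98 FPKM in CMP, 6.29 in CLP and 30.4 in HSC and at 0.601 FPKM or less in the other 4 columns. Adgrl4, an adhesion receptor known in endothelium, came next for both. Pdgfrb, a growth factor receptor, was the nearest to Cd34 (r = 0.996), with 4.35 FPKM in CMP, 3.33 in CLP and 6.52 in HSC. Afap1l1 and Smo, the signal transducer of the hedgehog pathway, followed. Myct1 was among the genes most like Procr (r = 0.945).

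Slamf1 was most like Trim7 (r = 0.997), Trat1, a T cell adaptor (r = 0.994), and Cr2, a complement receptor of B cells (r = 0.989). Cr2 had 26.1 FPKM in spleen Ter, 38.8 in the control and 0.318 in HSC. Cd48 was most like Gnpnat1, Itm2c and Erp44, all low in liver Ter. Mllt3 was most like Pcmtd2, Arl4a and Ptk2, all highest in liver Ter, Arl4a at 26.3 FPKM. Erg was most like Pimreg (r = 0.992), a mitosis gene, at 26.5 FPKM in CLP. Hist2h2aa1 was among the genes most like both Hlf and Mecom, at 11.2 FPKM in HSC. It is listed at 0 in spleen Ter, liver Ter, MEP, CMP and the control. Gm28048 was among those most like Mecom, at 33.4 FPKM in HSC and listed at 0 in the 4 recovered columns. Cfb, a complement factor, was the nearest to Hlf (r = 0.942), at 5.17 FPKM in HSC.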
